A study of Homo sapiens with 12 samples.

Results

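The genes described here are 43 genes of DNA replication and of the passage from G1 into S phase, taken by name from a fixed list. A listed gene was kept when its mean normalized count over the 12 libraries was at least 20. All 43 listed genes were kept, of 12939 genes that met this minimum and were tested and of 22148 genes in the table. HepG2 is an established human liver cancer line. The cells received siRNAs against CPSF6 (si-CPSF6) or a control siRNA (si-NC), and after 48 h of culture 5 µg/ml actinomycin D, an inhibitor of transcription, for 0, 3 or 6 h. There were 6 groups of 2 biological replicates: si-NC at 0, 3 and 6 h and si-CPSF6 at 0, 3 and 6 h. CPSF6 encodes a subunit of cleavage factor Im, which takes part in choosing where the 3′ end of an mRNA is cut. Every library, the 0 h controls included, came from transfected cells, no untransfected sample was analysed here, and the labels do not say how many siRNA sequences were used.

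DNA replication is prepared in G1, when the origin recognition complex, CDC6 and CDT1 load the MCM2 to MCM7 ring onto DNA. This step is called licensing, and geminin (GMNN) blocks it outside G1. In S phase CDC45, the GINS complex and MCM10 turn the loaded ring into an active helicase, polymerase alpha with primase starts each strand, and the polymerases delta and epsilon extend it on the PCNA clamp, which the RFC complex loads. FEN1 and LIG1 join the lagging-strand fragments, ribonucleotide reductase, thymidylate synthase and thymidine kinase supply nucleotides, and UHRF1 and the CHAF1 proteins restore DNA methylation and nucleosomes behind the fork. Many of these genes are known to be transcribed under E2F factors, whose activity is released when cyclin E and its kinase phosphorylate the retinoblastoma protein.

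The promoter sequences are shown because E2F-type letters are what many of these promoters share. Windows from 250 bases before to 50 bases after an annotated start were taken from RefSeq (GRCh38.p14), and they covered 39 of the 43 genes in 50 windows. MCM4, MCM5, GINS4 and CCNE2 had no window. The letters searched on both strands were TTTGGCGC, TTTCCCGC, TTTGGCGG and TTTCCCGG. At least 1 of them stood in a window of 24 of 39 genes (61.5%), against 1119 of 15843 protein-coding genes with a window (7.06%). The letters CCAAT, also read on both strands, stood in windows of 25 of 39 genes (64.1%), against 42.1% of protein-coding genes. The genes were listed for their known role in replication, so this share describes the list. Each line below gives 40 bases of the coding strand, 5′ to 3′, in lower case with the E2F-type letters of either strand in capitals, for genes to which the results below return:
CDC6 (chr17:40287870-40287909, + strand): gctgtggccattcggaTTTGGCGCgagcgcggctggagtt
CDT1 (chr16:88803746-88803785, + strand): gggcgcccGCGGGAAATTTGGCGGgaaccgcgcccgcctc
ORC3 (chr6:87590107-87590146, + strand): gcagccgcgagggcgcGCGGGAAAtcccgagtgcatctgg
GINS3 (chr16:58392450-58392489, + strand): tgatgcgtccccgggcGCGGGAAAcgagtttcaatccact
RFC1 (chr4:39366497-39366536, - strand): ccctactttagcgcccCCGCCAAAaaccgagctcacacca
POLA2 (chr11:65261922-65261961, + strand): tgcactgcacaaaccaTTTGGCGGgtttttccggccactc
E2F1 (chr20:33686382-33686421, - strand): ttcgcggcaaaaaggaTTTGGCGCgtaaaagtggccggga
E2F2 (chr1:23531252-23531291, - strand): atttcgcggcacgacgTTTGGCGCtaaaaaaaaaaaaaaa
UHRF1 (chr19:4909471-4909510, + strand): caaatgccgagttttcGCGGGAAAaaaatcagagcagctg
The windows of CDC6 and CDT1 each held 2 such sites, and in CDT1 the 2 sites lie next to each other. The windows of CCNE1, FEN1, RFC4, TK1, ORC2 and PRIM1 held none of the 4 letter strings, which says only that these letters are not in these windows.

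The labels were checked first. CPSF6 had normalized counts of 2147 and 2082 at 0 h, 3389 and 3309 at 3 h and 3469 and 3443 at 6 h in si-NC cells, and of 768 and 718, 674 and 801, and 810 and 732 in si-CPSF6 cells, so the arms did not overlap at any time. Its difference at 0 h was -1.51 on the log2 scale (SE 0.09, limma, adjusted p = 1.28e-08). All 10 hepatocyte markers on the list were above 0 in every library, albumin (ALB) at 4060 to 5420 TPM, and HNF4A at 24.2 to 100. Of the 9 markers of other cell types, COL3A1, VWF and CDH5 did not exceed 0.169 TPM and were at 0 in 8, 6 and 2 libraries, and COL1A1 and PECAM1 lay between 0.0835 and 1.12 TPM. The other 4 were present in every library: the smooth muscle actin ACTA2 at 10.1 to 35.3 TPM and the immune markers CD14 at 1.23 to 6.82, CD68 at 18.5 to 39.8 and LYZ at 244 to 956. Their part in the results was not tested. The normalized counts summed to 19133288 to 33352246 per library and were higher at later times. The spike-in RNA, added to 5 µg of total RNA, took 1.125% to 1.429% of them.

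A deposited and a spike-in scale are used below, and they answer different questions. The deposited normalized counts were set by the authors to an equal upper quartile in every library, so a value on that scale is a gene's standing among the other mRNAs. On the spike-in scale the counts were divided by the summed counts of the 87 spike-ins, so a value there is relative to the mass of total RNA rather than to a number of cells. The spike-in factors differed between replicates, most in si-CPSF6 at 3 h (1.212 and 0.939), and standard errors were larger on that scale. A gene that did not pass there is therefore not shown to be unchanged. During the transcription block the scales part: the median over all genes of the change from 0 to 6 h in si-NC cells was 0.31 as deposited and -0.65 on the spike-in scale, and in si-CPSF6 cells 0.35 and -0.50. At 0 h the arms parted less, with a median over all genes of 0.00 as deposited and -0.13 on the spike-in scale. In bulk RNA, fewer cells in S phase and less of a transcript per cell cannot be told apart.

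The first comparison asked how CPSF6 silencing changed these transcripts before the block. At 0 h 16 of the 43 genes were lower in si-CPSF6 cells, 4 were higher and 23 did not pass. The genes that were lower included both polymerase alpha subunits with the primase PRIM1, the origin recognition subunits ORC2 and ORC3, the helicase subunits MCM2, MCM5, MCM6 and MCM7, both genes of fragment joining, and TK1 and E2F2. The genes that were higher were CCNE1, MCM3 and the chromatin assembly genes CHAF1A and CHAF1B. Over all genes tested 21.8% were higher and 21.1% lower in the same comparison, and the median difference of the 43 genes was -0.20 against 0.00 over all genes. By spike-ins none was higher and 13 were lower (8.93% and 19.7% of all genes). These 13 were ORC2, ORC3, MCM2, MCM5, MCM6, POLA1, POLA2, PRIM1, FEN1, LIG1, TK1, E2F2 and UHRF1, and they also passed in the TPM table, where 3 genes were higher and 16 lower (19.1% and 16.6% of all genes).

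Among the licensing genes 2 of 7 were lower at 0 h and none was higher (21.1% and 21.8% of all genes). ORC3, a subunit of the origin recognition complex, had 756 and 700 normalized counts in si-NC cells and 404 and 466 in si-CPSF6 cells, a difference of -0.74 (SE 0.10, adjusted p = 4.4e-05). ORC2, another subunit, had 1516 and 1445 against 976 and 945, a difference of -0.62 (SE 0.09, adjusted p = 4.79e-05). Both genes stood at about 0.6 of the control level, 0.597 times for ORC3 and 0.649 times for ORC2. CDC6, the loader that joins the origin complex, had 2175 and 2285 against 1688 and 1747, so the arms did not overlap, yet its difference of -0.38 (SE 0.20) did not pass (adjusted p = 0.155). With the replicate number as a term of the fit CDC6 passed (adjusted p = 0.00568), as did ORC6 (-0.21, adjusted p = 0.0184), which made 4 of 7. Over all genes 3201 of 12939 were lower in that fit.

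The MCM2 to MCM7 ring did not move as a unit at 0 h. MCM2 had 5313 and 5222 normalized counts in si-NC cells and 4040 and 4175 in si-CPSF6 cells, a difference of -0.36 (SE 0.07, adjusted p = 0.000787). MCM5, MCM6 and MCM7 were lower as well, with the largest difference of the ring in MCM6 (-0.47, SE 0.10), while MCM4 at -0.19 (SE 0.11) did not pass. MCM3 went the other way, with 8856 and 8184 against 9879 and 9515 and a difference of 0.19 (SE 0.06, adjusted p = 0.0251). By spike-ins the MCM3 difference was 0.05 and did not pass (adjusted p = 0.81). Of the 6 activation genes only GINS1 passed, at -0.30 (SE 0.12, adjusted p = 0.0468).

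The polymerase alpha and primase transcripts were lower together. POLA2, the B subunit, had 470 and 449 normalized counts in si-NC cells and 296 and 278 in si-CPSF6 cells, a difference of -0.68 (SE 0.12, adjusted p = 0.000354). PRIM1, the catalytic primase subunit, had 494 and 474 against 304 and 303, a difference of -0.67 (SE 0.13, adjusted p = 0.000937), and POLA1, the catalytic polymerase subunit, was lower by 0.56 (881 and 818 against 568 and 587). Each of the 3 stood at 0.625 to 0.681 times the control. The catalytic subunits of the leading and lagging strand polymerases did not pass: POLE had 1699 and 1699 against 1663 and 1836, and POLD1 1413 and 1425 against 1278 and 1241. In fragment joining FEN1 had 2470 and 2635 against 1822 and 1897 and LIG1 1553 and 1805 against 1076 and 1221, so both genes were lower in both si-CPSF6 libraries. PCNA, the clamp, did not pass, with 10458 and 10651 against 9912 and 10950 and a difference of -0.02 (SE 0.12, adjusted p = 0.917).

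Of the 4 nucleotide supply genes TK1, the salvage thymidine kinase, was lower and the 3 genes of new synthesis did not pass. TK1 had 3692 and 3873 normalized counts in si-NC cells and 2387 and 2561 in si-CPSF6 cells, a difference of -0.61 (SE 0.11, adjusted p = 0.00071). RRM1, RRM2 and TYMS had differences of -0.06, 0.16 and -0.03 as deposited. In the TPM table RRM2 was higher, at 0.47 (adjusted p = 0.00702), a point taken up with the transcript length below.

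The G1/S control genes parted. E2F2, a transcriptional activator of the E2F family, had 272 and 264 normalized counts in si-NC cells and 141 and 151 in si-CPSF6 cells, the largest difference among the 43 genes (-0.87, SE 0.15, adjusted p = 0.000355, 0.546 times). CCNE1, which encodes cyclin E1, had 761 and 807 against 1016 and 1093 and was higher by 0.43 (SE 0.10, adjusted p = 0.00334). By spike-ins the CCNE1 difference at 0 h was 0.29 and did not pass (adjusted p = 0.218). E2F1 had 1002 and 1004 against 936 and 1020 and CCNE2 146 and 164 against 131 and 137, and neither passed (adjusted p = 0.741 and 0.397). Leaving out any of the 4 libraries at 0 h reduced the 4 genes called higher to 1 or 2, and leaving out any 1 of the 12 libraries gave 11 to 16 genes lower.

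**Figure D1:**
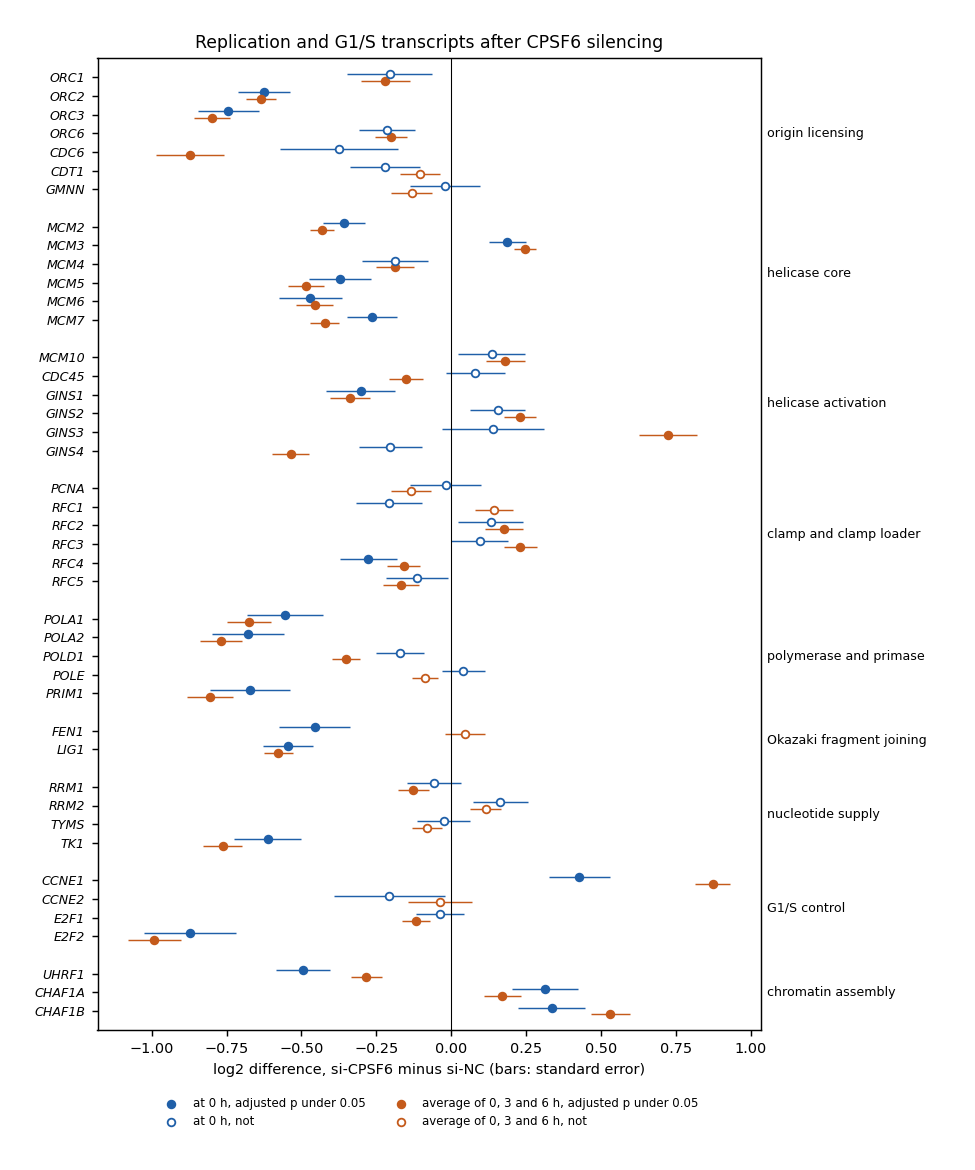
Log2 difference of each of the 43 genes between si-CPSF6 and si-NC cells on the deposited scale (x axis), at 0 h (blue) and averaged over 0, 3 and 6 h (orange), with genes grouped by role on the y axis. Bars are standard errors, filled points passed at an adjusted p under 0.05, and most filled points lie left of 0, with CCNE1, GINS3 and CHAF1B farthest to the right in the average.

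Averaged over the 3 times, where 6 libraries stand against 6, 25 genes were lower and 9 higher, against 35.4% and 34.4% of all genes. The median of the 43 genes was -0.16 against -0.01 over all genes. The split was 4 higher and 20 lower on the spike-in scale (26% and 33.1% of all genes) and 11 higher and 18 lower with median-ratio scaling (37.4% and 32.1%). The largest differences were those of E2F2 (-0.99, SE 0.09, adjusted p = 1.01e-07), CDC6 (-0.87, SE 0.11, adjusted p = 6.58e-05) and CCNE1 (0.87, SE 0.06, adjusted p = 4.32e-09). PRIM1 (-0.81), ORC3 (-0.80) and POLA2 (-0.77) followed, with standard errors of 0.06 to 0.08. The average mixes the states before and during the block: the CDC6 and CCNE1 differences were larger at 6 h than at 0 h, as the library values below show. Of the 16 genes lower at 0 h, 15 were also lower in the average, and FEN1 was not (0.05, SE 0.07).

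The second comparison followed each arm through the block. On the deposited scale the genes split in si-NC cells at 6 h into 19 higher and 19 lower (48.6% and 30.7% of all genes), and in si-CPSF6 cells into 20 higher and 19 lower (49.8% and 27.6%). On the spike-in scale no gene was higher in either arm, 28 were lower in si-NC cells and 30 in si-CPSF6 cells (10.2% higher and 57.7% lower of all genes in si-NC cells, 5.83% and 52.4% in si-CPSF6 cells). By TPM 2 were higher and 27 lower in si-NC cells (16.4% and 53.4% of all genes) and 2 and 28 in si-CPSF6 cells (14.4% and 48.9%). With median-ratio scaling 16 were higher and 22 lower in si-NC cells (38.8% and 37.7%) and 13 and 21 in si-CPSF6 cells (37.3% and 35.4%). Both as deposited and by spike-ins 18 genes were lower at 6 h in both arms: 6 of the 7 licensing genes, MCM10, GINS1, GINS3, RFC1, RFC3, RFC4, POLA2, PRIM1, FEN1, CCNE2, UHRF1 and CHAF1A. Another 13 did not pass in either arm on the spike-in scale: MCM2, CDC45, GINS2, GINS4, RFC2, POLD1, POLE, LIG1, RRM1, RRM2, TYMS, TK1 and E2F1. The share of all genes that met either joint rule was not counted, so these 2 sets only name the genes. On that scale the 43 genes were left at 7.65% to 121% of their 0 h level after 6 h in si-NC cells, with a median of 48.0% against 63.6% over all genes, and at 8.74% to 116% in si-CPSF6 cells, with a median of 56.9% against 70.7%.

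**Figure D2:**
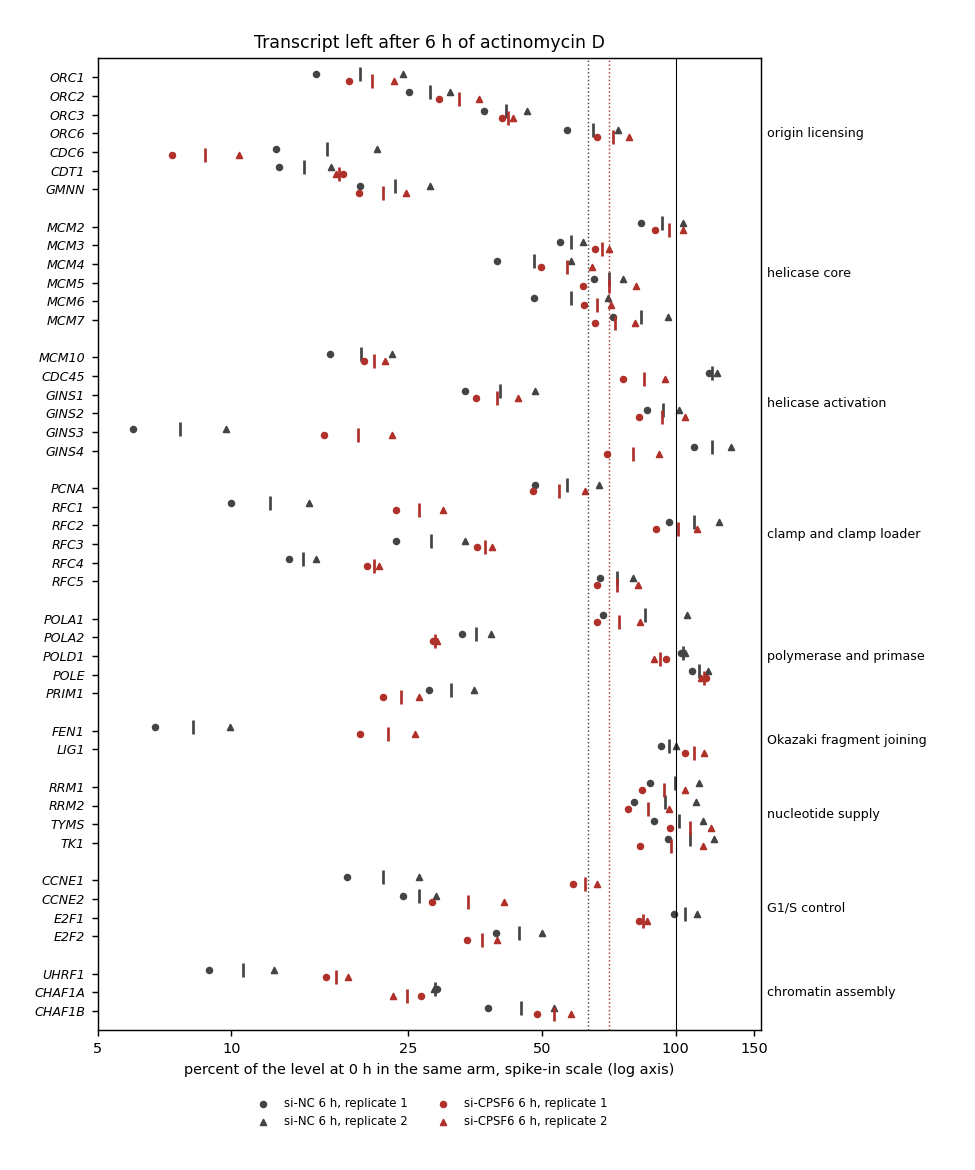
Percent of the 0 h level of the same arm that was left at 6 h, on the spike-in scale with a log x axis, for the 43 genes grouped by role on the y axis. Circles and triangles are replicates 1 and 2 of si-NC (grey) and si-CPSF6 (red), bars mark the group value, and dotted lines mark the medians over all genes, 63.6% and 70.7%. The licensing genes other than ORC6 lie to the left, the nucleotide supply genes near 100%.

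Of the licensing genes all 7 were lower at 6 h in both arms on the spike-in scale, and 6 of 7 as deposited. Of all genes 57.7% in si-NC and 52.4% in si-CPSF6 cells were lower by spike-ins, and 30.7% and 27.6% as deposited. ORC6, another subunit of the origin recognition complex, was higher as deposited (0.34 in si-NC cells) and lower by spike-ins (65.1% left). CDC6 had 1225 and 1373 normalized counts at 3 h and 590 and 858 at 6 h in si-NC cells, and 618 and 830, then 235 and 313, in si-CPSF6 cells. By spike-ins 16.4% was left in si-NC cells and 8.74% in si-CPSF6 cells, where CDC6 had the lowest share of the 43 genes. CDT1, its partner in loading, went from 960 and 946 at 0 h to 360 and 440 at 3 h and 255 and 288 at 6 h in si-NC cells, a change at 6 h of -1.81 as deposited (SE 0.12, adjusted p = 1.02e-09). In si-CPSF6 cells CDT1 went from 801 and 834 to 414 and 369 and 271 and 247, a change of -1.66 (SE 0.12, adjusted p = 4.67e-09). ORC1 was left at 19.5% in si-NC and 20.7% in si-CPSF6 cells, with 773 and 725 against 243 and 330 normalized counts at 0 and 6 h in the former and 662 and 637 against 222 and 265 in the latter. GMNN, the inhibitor of CDT1, was left at 23.4% and 21.9%.

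The transcripts of the ring that these factors load were left at higher levels. MCM2 had 8544 and 8561 normalized counts at 3 h and 9266 and 9921 at 6 h in si-NC cells, and 5642 and 6261, then 6890 and 7537, in si-CPSF6 cells. As deposited it was higher at 6 h in both arms, by 0.86 (SE 0.07, adjusted p = 1.46e-08) and 0.81 (SE 0.07, adjusted p = 4.2e-08). By spike-ins 93.3% and 96.7% was left, and neither passed (SE 0.15 in each arm, adjusted p = 0.575 and 0.807). At 6 h the 6 ring genes were left at 48.0% (MCM4) to 93.3% (MCM2) in si-NC cells and at 56.9% to 96.7% in si-CPSF6 cells, the same 2 genes at the ends. Only MCM2 and, in si-NC cells, MCM7 did not pass as lower.

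The activation genes spread over the whole range. The GINS complex has 4 subunits, and at 6 h in si-NC cells GINS3 was left at 7.65%, GINS1 at 40.3%, GINS2 at 93.9% and GINS4 at 121%. GINS3 went from 658 and 728 normalized counts at 0 h to 325 and 347 at 3 h and 86 and 121 at 6 h in si-NC cells, the largest fall of the 43 genes (-2.75 as deposited, SE 0.17, adjusted p = 1.51e-09). In si-CPSF6 cells it went from 752 and 772 to 475 and 594 and 229 and 308, a change of -1.52 (SE 0.17, adjusted p = 1.28e-06). MCM10, which acts in activation, fell from 717 and 756 to 340 and 367 at 3 h in si-NC cells and from 750 and 871 to 432 and 423 in si-CPSF6 cells. At 6 h 19.6% and 21.0% of MCM10 was left.

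The clamp loader subunits were spread as widely. RFC1, its large subunit, went from 2627 and 2516 normalized counts to 1907 and 1942 at 3 h and 539 and 695 at 6 h in si-NC cells, and from 2248 and 2202 to 1649 and 1779 and 975 and 1176 in si-CPSF6 cells. RFC4, a small subunit, had 865 and 894, then 648 and 640, then 248 and 246 in si-NC cells and 769 and 684, 488 and 525, and 273 and 274 in si-CPSF6 cells. By spike-ins 12.2% of RFC1 and 14.5% of RFC4 was left in si-NC cells, against 73.7% of RFC5 and 110% of RFC2. PCNA had 13200 and 13922 at 3 h and 10683 and 12879 at 6 h in si-NC cells, and 10673 and 13039, then 9302 and 11456, in si-CPSF6 cells. By spike-ins 57.0% and 54.6% of PCNA was left, below the medians over all genes of 63.6% and 70.7%.

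The polymerase transcripts also differed. POLE went from 1699 and 1699 to 3443 and 3608 at 3 h and 3895 and 3629 at 6 h in si-NC cells, and from 1663 and 1836 to 2849 and 3006 and 3820 and 3523 in si-CPSF6 cells. POLD1 had 2721 and 2673, then 3073 and 2687, in si-NC cells and 1965 and 2016, then 2244 and 1986, in si-CPSF6 cells. At 6 h by spike-ins 113% of POLE and 104% of POLD1 was left in si-NC cells, against 35.6% of POLA2 and 31.3% of PRIM1, the companions of POLA1 (85.2%). In si-CPSF6 cells POLA2 fell to 152 and 146 and PRIM1 to 124 and 140 normalized counts, from the 0 h values given above.

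In fragment joining the nuclease and the ligase went apart. FEN1, which cuts the flap ahead of ligation, had 1720 and 1779 normalized counts at 3 h and 360 and 459 at 6 h in si-NC cells, and 1339 and 1503, then 678 and 846, in si-CPSF6 cells. It was left at 8.19% and 22.5% by spike-ins. LIG1, the ligase, had 3193 and 3266, then 3265 and 3043, in si-NC cells and 1931 and 1973, then 2247 and 2337, in si-CPSF6 cells, and was left at 96.5% and 110%. The 4 nucleotide supply genes were all higher as deposited at 3 and 6 h in both arms, none passed on the spike-in scale, and at 6 h they were left at 94.6% to 108% in si-NC cells and 86.8% to 108% in si-CPSF6 cells.

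UHRF1, which recruits the maintenance DNA methyltransferase, went from 2385 and 2409 normalized counts to 1417 and 1320 and 448 and 541 in si-NC cells and from 1723 and 1677 to 1017 and 968 and 516 and 546 in si-CPSF6 cells. It was left at 10.6% and 17.2% by spike-ins. E2F1 had 1057 and 1215 at 3 h and 2089 and 2029 at 6 h in si-NC cells, and 1230 and 1282, then 1509 and 1483, in si-CPSF6 cells, and was left at 105% and 84.4%. E2F2 had 154 and 178, then 221 and 242, in si-NC cells and 83 and 101, then 92 and 101, in si-CPSF6 cells, and was left at 44.4% and 36.7%. At 6 h the 2 E2F genes thus differed on the spike-in scale, where E2F2 passed as lower in both arms (adjusted p = 9.03e-06 and 1.87e-07) and E2F1 in neither (0.7 and 0.196). At 3 h E2F1 was at 70% in si-NC cells and passed as lower (limma, adjusted p = 0.00622). In si-CPSF6 cells it was at 88.7% and did not pass (adjusted p = 0.43). CCNE2 had 88 and 98, then 78 and 80, in si-NC cells and 90 and 101, then 70 and 96, in si-CPSF6 cells, and was left at 26.5% and 34.1%. Its change at 6 h in si-CPSF6 cells (-0.70, SE 0.19, adjusted p = 0.00295) did not pass without replicate 1 of that group (adjusted p = 0.0504).

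After 3 h the pattern by role was already present. As deposited 20 genes were higher and 18 lower in si-NC cells (45.8% and 25.7% of all genes) and 20 and 15 in si-CPSF6 cells (43.6% and 22.9%). The 6 ring genes and the 4 nucleotide supply genes were higher in both arms, and 5 of the 7 licensing genes lower. By spike-ins 1 gene, POLE, was higher in si-NC cells and 25 were lower (4.13% and 48.8% of all genes), against 0 and 20 in si-CPSF6 cells (2.94% and 38.4%). With median-ratio scaling 12 were higher and 18 lower in each arm (35% and 32.2% of all genes in si-NC cells, 30.6% and 29.7% in si-CPSF6 cells). By TPM 2 and 23 passed in si-NC cells (11.6% and 42.8%) and 3 and 20 in si-CPSF6 cells (9.52% and 37.5%). CDT1 was the lowest in si-NC cells (25.9% left) and CDC6 in si-CPSF6 cells (28.8% left).

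The third comparison asked whether the change during the block differed between the arms. Between 0 and 3 h no gene passed in either direction (2.26% and 0.734% of all genes), and 6 of 43 had an unadjusted p under 0.05 by limma. By spike-ins, median ratio and TPM none passed either, with 4, 5 and 2 genes at an unadjusted p under 0.05. With the replicate number in the fit GINS2 (0.34) and CHAF1B (0.44) passed as higher and POLE (-0.31) as lower (4.95% and 2.98% of all genes). Between 0 and 6 h 6 genes passed with a higher and 4 with a lower change in si-CPSF6 cells (12% and 12.4% of all genes). The 6 were CCNE1, FEN1, GINS3, RFC1, UHRF1 and RFC4, and the 4 were CDC6, GINS4, CDC45 and E2F1. On the spike-in scale CCNE1, FEN1, GINS3, RFC1 and UHRF1 passed and none was lower (6.89% and 1.84% of all genes), the TPM table gave 7 and 1 (8.2% and 4.54%), and the replicate term 7 and 7 (16.2% and 17.7%), with RFC3 (0.30) added as higher and MCM7 (-0.30), POLD1 (-0.27) and PRIM1 (-0.48) as lower.

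CCNE1 (chr19:29811898-29824308) had the largest difference. As deposited the fall in si-NC cells came after 3 h. Normalized counts there were 761 and 807 at 0 h, 871 and 895 at 3 h and 299 and 374 at 6 h. In si-CPSF6 cells they were 1016 and 1093, 1094 and 1168, and 1158 and 1235, a change at 6 h of 0.18 as deposited that did not pass (adjusted p = 0.112). At 6 h the arms were far apart, and the difference of the changes was 1.41 (SE 0.14, adjusted p = 1.02e-05, 2.65-fold). By spike-ins 21.9% was left in si-NC and 62.5% in si-CPSF6 cells, a difference of 1.51 (adjusted p = 2.76e-05), and CCNE1 was lower at 6 h in both arms on that scale. There it was already lower at 3 h, with 69.8% left in si-NC and 74.1% in si-CPSF6 cells (limma, adjusted p = 0.0108 and 0.0427).

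FEN1 (chr11:61792637-61797244) followed with 1.35 (SE 0.17, adjusted p = 6.88e-05), GINS3 with 1.23 (SE 0.24, adjusted p = 0.0022) and RFC1 with 1.01 (SE 0.15, adjusted p = 0.000352). In FEN1, RFC1, UHRF1 and RFC4 the si-CPSF6 libraries started below the si-NC libraries at 0 h. At 6 h the FEN1 and RFC1 libraries of si-CPSF6 were all above those of si-NC, the UHRF1 libraries overlapped, and the RFC4 libraries (273 and 274 against 248 and 246) did not. For UHRF1 the difference was 0.60 (SE 0.13, adjusted p = 0.00342) and for RFC4 0.42 (SE 0.13, adjusted p = 0.0324). The RFC4 difference was 0.53 on the spike-in scale and did not pass there (adjusted p = 0.198). FEN1 overlaps FADS2 on its own strand and TMEM258 on the other, and RFC4 overlaps EIF4A2 on the other strand, all measured here, so part of their counts could belong to these neighbours.

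The 4 genes with a lower change in si-CPSF6 cells passed on the deposited scale and not by spike-ins, where all 4 kept their sign. CDC6 (chr17:40287633-40304657) had a difference of -1.01 (SE 0.28, adjusted p = 0.0264), which was -0.91 by spike-ins (adjusted p = 0.233) and -0.82 in the TPM table (adjusted p = 0.0286). Leaving out any of the 0 h libraries, or replicate 1 of si-CPSF6 at 6 h, ended the call for CDC6 (adjusted p = 0.0611 to 0.0765, differences of -0.81 to -1.05). GINS4 had 530 and 566, 887 and 942, and 1264 and 1324 normalized counts in si-NC cells and 442 and 512, 634 and 655, and 624 and 768 in si-CPSF6 cells, a difference of -0.70 (SE 0.15, adjusted p = 0.00374). CDC45, which joins the same helicase, had 590 and 564, 828 and 891, and 1437 and 1300 against 619 and 601, 806 and 919, and 870 and 1016, a difference of -0.62 (SE 0.14, adjusted p = 0.00501). For E2F1 it was -0.42 (SE 0.12, adjusted p = 0.0152), and without replicate 2 of si-CPSF6 at 0 h -0.36 (adjusted p = 0.0697). The spike-in values were -0.59 for GINS4, -0.52 for CDC45 and -0.32 for E2F1 (adjusted p = 0.136, 0.199 and 0.461). MCM2 (-0.05, SE 0.10), PCNA (-0.17, SE 0.17) and CCNE2 (0.26, SE 0.26) did not pass (adjusted p = 0.739, 0.514 and 0.513).

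**Figure D3:**
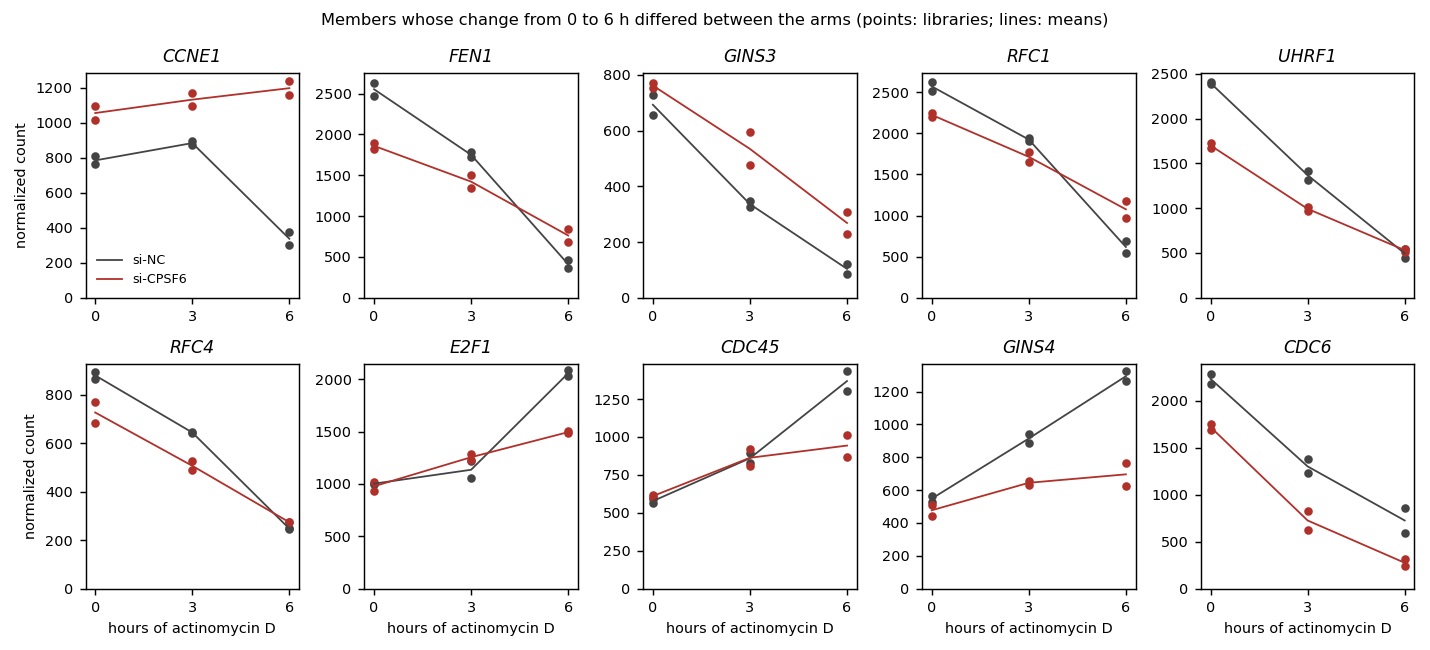
Normalized counts as deposited (y axis, from 0) against hours of actinomycin D for the 10 genes whose change from 0 to 6 h differed between si-NC (grey) and si-CPSF6 cells (red). Points are single libraries and lines join group means. The lines of CCNE1 part after 3 h, where si-NC falls to 299 and 374 and si-CPSF6 stays at 1158 and 1235.

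For most of these genes the arms parted after 3 h. The difference between the arms of the change from 3 to 6 h, a comparison added after the data had been seen, passed for 5 genes as higher and 5 as lower (7.84% and 7.47% of all genes). It was 1.48 for CCNE1 (SE 0.14, adjusted p = 8.16e-06), 1.20 for FEN1 (SE 0.17, adjusted p = 0.000279) and 0.97 for RFC1 (SE 0.15, adjusted p = 0.000714), with UHRF1 (0.57) and RFC4 (0.49) also higher. The lower 5 were E2F1 (-0.61), RFC2 (-0.60), POLA2 (-0.55), CDC45 (-0.54) and GINS2 (-0.45). GINS3 (0.71) and CDC6 (-0.53) did not pass in this interval (adjusted p = 0.0605 and 0.244). By spike-ins 3 of these passed as higher and none as lower (2.03% and 2.64% of all genes). With the replicate term 6 genes were higher and 9 lower (12.4% and 12.3%), with GINS3 added as higher and CDC6, GINS4 (-0.40), PRIM1 (-0.57) and RRM2 (-0.31) as lower.

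Other genes of the pathway were read from lists drawn up for this report. Of 62 other replication and G1/S genes 4 were higher and 11 lower at 0 h (21.8% and 21.1% of all genes). At 6 h in si-NC cells 28 were higher and 27 lower as deposited (48.6% and 30.7%), and 6 and 42 by spike-ins (10.2% and 57.7%). In the difference between the arms from 0 to 6 h 3 were higher and 10 lower as deposited (12% and 12.4%). That difference gave 2 higher and 0 lower by spike-ins (6.89% and 1.84%), and 3 and 3 in the TPM table (8.2% and 4.54%). The genes named here were among those with the smallest p of their list. ASF1B, a histone chaperone that hands histones to the CHAF1 complex, had 739 and 790 normalized counts against 270 and 350 at 0 h, a difference of -1.31 (SE 0.11, adjusted p = 6.4e-07). BRCA1, which acts in the repair of broken forks, had 742 and 811 against 280 and 295, a difference of -1.43 (SE 0.14, adjusted p = 2.31e-06). TOP1, which relieves supercoils, was higher (2867 and 2490 against 4311 and 4094, 0.65, SE 0.09). The differences of ASF1B and BRCA1 are each larger than the -0.87 of E2F2, the largest of the 43 genes.

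During the block the other replication genes also spread widely. FBXO5, an inhibitor of the anaphase-promoting complex, went from 1037 and 1001 normalized counts to 70 and 94 at 6 h in si-NC cells (-3.63, SE 0.17), and MSH6, of mismatch repair, from 2689 and 2584 to 432 and 445 (-2.59, SE 0.09). CHTF18, of an alternative clamp loader, went from 586 and 648 to 2803 and 2568 (2.12, SE 0.09), and it was higher by spike-ins too (1.16, adjusted p = 1.58e-08). In the difference between the arms TOP1 (-0.72, SE 0.12, adjusted p = 0.00069), PCLAF (-0.74, SE 0.15, adjusted p = 0.00298) and RNASEH2A (-0.51, SE 0.11, adjusted p = 0.00367) were lower and POLD3, a polymerase delta subunit, higher (0.74, SE 0.15, adjusted p = 0.00232). By spike-ins POLD3 passed (0.85, adjusted p = 0.0259) and the other 3 did not.

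Of 30 measured G1 regulators 3 were higher and 9 lower at 0 h (21.8% and 21.1% of all genes). SKP2, which targets the inhibitor CDKN1B for degradation, had 2201 and 2176 normalized counts against 1169 and 1151, a difference of -0.92 (SE 0.07, adjusted p = 1.47e-07). CCND1, cyclin D1, had 11571 and 13039 against 7908 and 8492 (-0.58, SE 0.07, adjusted p = 1.76e-05), and CDKN1A, the inhibitor p21, 3271 and 3503 against 2393 and 2319 (-0.52, SE 0.11, adjusted p = 0.00115). TFDP2, a partner of E2F factors, was lower by 0.74 in normalized counts (SE 0.11, adjusted p = 7.67e-05) but at 0.36 in the TPM table, where it did not pass (adjusted p = 0.437). The genes that were lower held both those that promote and those that restrain S phase, 4 of 11 activators and 5 of 19 repressors and inhibitors. At 6 h in si-NC cells 11 of the 30 regulators were higher and 14 lower as deposited (48.6% and 30.7% of all genes). Of the 11 activators 7 were higher and 2 lower on that scale, and of the 19 repressors and inhibitors 4 and 12. By spike-ins 1 activator was higher and 6 lower, and 1 repressor or inhibitor was higher and 16 lower (10.2% and 57.7% of all genes). In the same comparison CDKN1B went from 1582 and 1685 to 202 and 242 and CDKN1A to 764 and 834. These were changes of -2.88 and -2.08 on the log2 scale (SE 0.10 and 0.11). In the difference between the arms CDKN1B was higher (0.57, SE 0.14, adjusted p = 0.0107, and 0.0543 without replicate 2 of si-NC at 0 h), and MYBL2 (-0.49), CKS1B (-0.57) and RBL2 (-0.66) were lower, none of the 4 passing by spike-ins.

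The 40 mitosis and G2/M genes were set beside the 43 genes as the nearest group. At 0 h 5 were higher and 16 lower with a median of -0.19, next to 4, 16 and -0.20 for the replication genes. Of all genes 21.8% were higher and 21.1% lower there. At 6 h in si-NC cells 4 mitosis genes were higher and 27 lower as deposited, next to 19 and 19 (48.6% and 30.7% of all genes). The medians were -0.37 and -0.09. By spike-ins 38 of 40 mitosis genes were lower, next to 28 of 43 (57.7% of all genes). No test of these differences between lists was made.

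The 2 replicates of a group differed in these genes in one direction, a pattern chosen after the data had been seen. In the fit with the replicate number as a term 11 of the 43 genes were higher in replicate 2 and none lower (3.82% and 6.28% of all genes), and the median of the 43 genes was 0.11 against 0.00 over all genes. Of the 62 other replication and G1/S genes 7 were higher and 0 lower (median 0.08), and of the 40 mitosis genes 4 and 0 (median 0.05). PCNA (0.18, adjusted p = 0.00198), CDC6 (0.28, adjusted p = 0.00582), TYMS, MCM5, TK1, GINS3, FEN1, RRM2, MCM7, MCM4 and GMNN passed. Of the 43 genes 14 were higher in replicate 2 in all 6 groups, but the share of all genes that did so was not counted. The summed level of the 43 genes was 2633 and 2734 TPM in replicates 1 and 2 of si-NC at 0 h and 1556 and 1795 TPM in si-CPSF6 at 6 h, and replicate 2 was higher in every group. The median was largest in si-CPSF6 at 6 h, at 0.21. The replicate numbers were the same in both arms and at each time. The fits with the replicate term allow 1 shift per gene, the same in all 6 groups. The median difference of the 43 genes rose between 0 and 6 h from 0.01 to 0.16 in si-NC cells and from 0.06 to 0.21 in si-CPSF6 cells. A replicate difference that changes with time is not covered by that term.

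**Figure D4:**
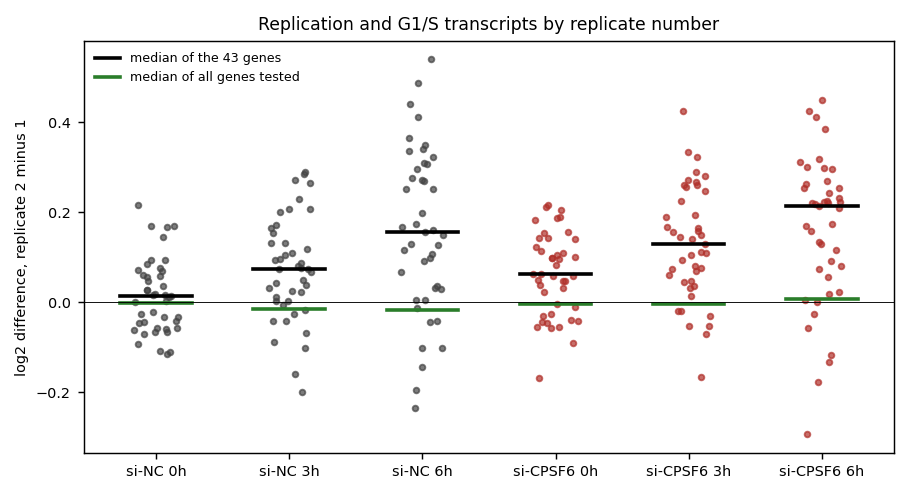
Log2 difference between replicate 2 and replicate 1 (y axis) in each of the 6 groups (x axis) for the 43 genes, 1 point a gene. Black bars are medians of the 43 genes, from 0.01 in si-NC at 0 h to 0.21 in si-CPSF6 at 6 h, and green bars are medians over all genes tested, which lie near 0.

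The ratio of normalized count to TPM follows the effective transcript length that the authors' quantification used, so a change in it is a change in the apparent length of the mix of isoforms. Set to each library's median, as planned, 18 of the 43 genes were longer and 0 shorter in si-CPSF6 cells at 0 h, and 19 and 1 in the average. With that centring 4882 of all 14885 genes were longer and 760 shorter at 0 h, and 5890 and 1259 in the average. A centring on the most common value of each library was not planned. With it the average apparent length was shorter in si-CPSF6 cells for ORC3 (-0.48) and LIG1 (-0.08) and longer for none of the 43 genes. Of 14885 genes 10.2% were shorter and 1.44% longer. ORC3 is the gene to which this matters most: its average difference was -0.80 in normalized counts and -0.30 in TPM. At 0 h the only gene to pass with the unplanned centring was POLE, as longer (0.40, against 0.437% of genes longer and 4.37% shorter). Its difference in TPM was -0.40 (adjusted p = 0.00643) beside 0.04 in normalized counts. RRM2 had an apparent length change at 0 h of -0.37 that did not pass. Isoforms were not measured directly.

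The choice of cleavage site sets the length of the 3′ UTR, where known instability letters can lie, so the annotated 3′ UTRs were read as a description, added after the data had been seen. In the principal GENCODE 29 transcripts the 43 genes had a median of 740 bases of 3′ UTR against 1073.5 over 11596 tested genes, and 27 of 43 (62.8%) held the letters ATTTA at least once, against 68.6%. Across the 43 genes the number of ATTTA letters had a rank correlation of -0.01 with the change at 6 h in si-NC cells and of -0.16 with the difference between the arms, against -0.23 and 0.10 across all genes. Of the 7 genes with the largest falls in si-NC cells FEN1, RFC4 and CDT1 held none, GINS3 and UHRF1 1 each, and RFC1 and CDC6 5 each. Genes are not independent replicates, and no test was made.

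The promoter letters shown above were then counted by response. E2F-type letters stood in windows of 9 of 15 genes that were lower at 0 h, 2 of 4 that were higher and 13 of 20 that did not pass. Of the genes that differed between the arms from 0 to 6 h, 3 of 6 with a higher change (GINS3, RFC1 and UHRF1) and 3 of 3 with a lower change and a window (CDC6, CDC45 and E2F1) held them. These counts are a description of small groups, with no test.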

How the data were processed

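RNA of HepG2 cells was sequenced in 12 libraries, 6 groups of 2 biological replicates. STAR, RSEM and the build hg38 are named in the submitters' processing notes. The sources used here give no versions, annotation or strand setting, although the library kit was directional per the labels' protocols. The deposited normalized counts are a score: the authors brought gene counts to one upper quartile (660.5 or 661 over 22235 entries) and rounded. The authors also deposited TPM for the same entries, which served as another scale and gave the apparent length. The design had foreseen a count test for raw counts, which these are not, so limma 3.58.1 (R 4.3.3, trend and robust settings) took log2(normalized count + 1) of the 12 libraries together, with a mean for each of the 6 groups. The 12939 genes whose mean reached 20 entered, p-values were adjusted by Benjamini-Hochberg within each comparison, and the threshold was 0.05. A fold change on this scale understates the change of low genes. Tests were also run on simulated data.

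Alternatives were pseudocounts of 0.1 and 10, minimum means of 0 and 100, spike-in, median-ratio and TPM scales, limma without trend or robust settings, only the groups compared, the replicate number as a term, and each library left out. Around their group means, libraries with the same number moved together (correlation 0.108 to 0.236 in 15 pairs of groups). Only the alternative fits with the replicate number as a term treated the numbers as pairs, and the main fit did not. This pairing rests on the values, since the labels name no shared day. Replicates correlated at 0.9911 to 0.9931.

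The members and lists were chosen with earlier results of these data known. Library values are given for CDC6, CCNE1, CCNE2, E2F1, MCM2 and PCNA and for the 6 genes that passed with the largest difference in each comparison, and up to 4 genes with the smallest p are named from each further list. A gene that this rule would name is not reported here. Other genes named were chosen after their values were seen. Genes were placed with GENCODE 29. Of the 43 genes RFC3, PRIM1, FEN1 and CHAF1B overlap a measured gene on their own strand, and MCM2, MCM7, GINS2, RFC4, RFC5, POLA1, FEN1, TYMS, CCNE2 and CHAF1A on the other, and PCNA, RRM2, TYMS, RFC3, RFC5 and FEN1 have processed copies by name, so their counts are uncertain to that extent.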

Additional observations from a re-analysis of the deposited data

Results flagged for a closer look

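The genes below are given because their change from 0 to 6 h of actinomycin D differed between the arms by a test of that difference (limma, log2 scale as deposited). CCNE1 had 1.41, FEN1 1.35, GINS3 1.23, RFC1 1.01, UHRF1 0.60 and RFC4 0.42, each with the higher change in si-CPSF6 cells. CDC6 had -1.01, GINS4 -0.70, CDC45 -0.62 and E2F1 -0.42, each with the lower change. Of the 10, CCNE1, FEN1, GINS3, RFC1 and UHRF1 also passed on the spike-in scale.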

How the results depend on the processing

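The counts of genes called depended most on the scale. On the spike-in scale none was higher at 0 h, 4 were higher in the average, and 1, 0, 0 and 0 were higher at 3 and 6 h in si-NC and at 3 and 6 h in si-CPSF6 cells, where 30 were lower at 6 h. No gene was lower by spike-ins in the difference between the arms from 0 to 6 h. With the replicate block added to the spike-in scale 0 were higher at 0 h, 1 higher and 30 lower at 3 h and 0 and 29 at 6 h in si-NC cells, 0 and 23 at 3 h and 0 and 31 at 6 h in si-CPSF6 cells, and 1 was higher in the difference from 0 to 3 h. Median-ratio scaling gave 12 higher at 3 h in each arm and 13 at 6 h in si-CPSF6 cells. The TPM table gave 2 higher at 3 h and 2 at 6 h in si-NC cells, 3 and 2 in si-CPSF6 cells, and 1 lower in the difference between the arms at 6 h. The replicate block alone, in which the replicate number pairs the libraries, gave 2 higher and 1 lower for the difference at 3 h and 7 lower at 6 h, 9 lower for the change from 3 to 6 h against 5, and 4 against 2 licensing genes lower at 0 h. For the other comparisons it moved no count over the 43 genes by over 1.5 times. Limma without trend or robust settings left 1 gene higher at 0 h. With 1 library left out, the genes higher at 0 h numbered 1 to 4 and those lower in the difference at 6 h 2 to 6, the lowest without replicate 2 of si-CPSF6 at 0 h. The apparent length depended on its centring. Set to each library's median, as planned, 18 genes were longer and 0 shorter at 0 h and 19 and 1 in the average. With that centring 4882 of all 14885 genes were longer and 760 shorter at 0 h, and 5890 and 1259 in the average. Set to the most common value, which was not planned, 1 of the 43 genes was longer and 0 shorter at 0 h, and 0 and 2 in the average. With the median centring, leaving out 1 library gave 0 to 1 shorter at 0 h and 1 to 2 in the average. Signs turned for TFDP2 in the TPM table (0.36 at 0 h, 0.24 in the average), for PCNA at 3 h in si-NC cells (-0.33 by spike-ins, also with the replicate block, and -0.22 in TPM), for MCM2 at 6 h in si-NC cells (-0.10 by spike-ins, also with the block, and -0.03 in TPM) and in si-CPSF6 cells (-0.05 by spike-ins, also with the block, and -0.0011 at 3 h by spike-ins with and without the block), and for E2F1 in si-CPSF6 cells (-0.17 by spike-ins and -0.12 in TPM at 3 h, -0.25 and -0.14 at 6 h, with the same spike-in values under the block). Except for the scales, whose construction sets the shift, the cause was not tested. Named genes kept their call in 1671 fits with 1 library left out, lost it in 38 and gained one in 7, and 0 turned in sign. Many of these fits left out a library outside the groups compared, which cannot move the difference itself, so the tally overstates how firm the calls are. Depth limits the lowest genes most, such as CCNE2 and E2F2.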
